A study of Saccharomyces cerevisiae with 4 samples.

Results

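Glycogen synthesis and breakdown in Saccharomyces cerevisiae was followed through 10 genes, picked by their systematic names. They include the glycogenin genes GLG1 and GLG2, the glycogen synthase genes GSY1 and GSY2, and the branching enzyme gene GLC3. Genes of breakdown are the phosphorylase gene GPH1 and the debranching enzyme gene GDB1. GAC1, PIG1 and PIG2 complete the set, and their products are or resemble targeting subunits of protein phosphatase 1. All 10 were tested by the authors, among 5328 named genes with a level above 0 in both strains. The minimal glycolysis strain, IMX372, was set against the reference strain, CEN.PK113-7D. IMX372 lacks 13 minor paralogs of glycolysis and fermentation. Of these, glk1 is replaced by SpHis5, hxk1 by KlLEU2 and tdh1 by KlURA3, and eno1, pyk2, tdh2, gpm2 and gpm3, as well as adh2, adh4, adh5, pdc5 and pdc6, are listed without a marker. IMX372 also carries the alleles ura3-52, his3-1 and leu2-3,112, and the effects of alleles, markers and deletions cannot be told apart. CEN.PK113-7D is labelled a prototrophic reference, and both strains are MATa MAL2-8c SUC2. Cells grew aerobically in batch bioreactors at 30 °C and pH 5, with glucose at 20 g/L in a synthetic medium, and total RNA was taken in mid-exponential phase. There are 2 libraries of each strain, and the labels state 4 independent cultivations per strain without tying a library to one of them.

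Glycogen is a branched glucose polymer that yeast stores in the cytosol. Glycogenin starts a chain by attaching glucose to itself, glycogen synthase extends it from UDP-glucose, and branching enzyme adds the side chains. Phosphorylase and debranching enzyme take the polymer apart again. Synthase is active when dephosphorylated, and protein phosphatase 1, steered by its targeting subunits, removes the phosphates. In cultures on glucose the store is classically built up as nutrients run low, and many of its genes respond to stress and to the end of rapid growth. IMX372 keeps the hexokinase gene HXK2 but lacks GLK1 and HXK1, whose products also make glucose 6-phosphate, from which the branch to glycogen starts.

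The values are FPKM, read fragments scaled to the length of the gene model and to the size of the library. Levels of genes are compared on this scale, and whether a dependence on length remains in them was not tested. Among the members the shortest, GLG2 at 1143 bases, had the highest level. The longest, GPH1 at 2709 bases and GDB1 at 4611 bases, had the lowest. In the deposited table each strain has a single FPKM per model, which the authors pooled over its libraries, so no SD or n stands beside a level. A gene was called different at an authors' q of at most 0.05. Of the deleted genes, GPM3 was listed at 0 FPKM in IMX372, against 57.7 FPKM in the reference, and the authors' deposited table gives q = 0.00735. For 10 more of the deleted genes both strains were listed at 0 without a test, and PDC5 and ADH2 had no model under their names, so at most 1 of the 13 deletions can be read from the table. Both sample names there are suffixed masked, and ENO1 and TDH2, genes of abundant enzymes, are at 0 in the reference as well. From a 0 alone masking and deletion thus cannot be told apart. GPM3 had a level in the reference, so it was not masked there. Whether it was masked in IMX372 alone is not given in the sources used here. The table lists 5472 models, the labels state data sets of at least 1 Gb, and the read number behind each value is unknown.

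None of the 10 glycogen genes was called, and all of them differed by less than 1.2-fold between the strains. By the authors' deposited table the share of genes called was 0.751% (40 of 5328), so 0 of 10 is close to that background. The smallest unadjusted p among the members was 0.202, for PIG1, and all 10 shared a q of 0.998 in the authors' deposited table. At an unadjusted p under 0.05 the count was also 0 of 10, against 3.13% of all genes, and a change of at least 1.5-fold, whatever q, was seen in 0 of 10, against 1.3% of all genes. The log2 ratio of IMX372 over the reference was below 0 for 7 members and above 0 for 3, where 2505 of all 5328 genes were below 0. The members' median was -0.06, beside 0.01 over all genes and -0.04 over the 1335 genes in the members' FPKM range. After a fit on level and coding length, 6 members were below 0 and 4 above. Summed over the 10 genes, the level was 152.6 FPKM in IMX372, against 158.5 FPKM in the reference.

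**Figure D1:**
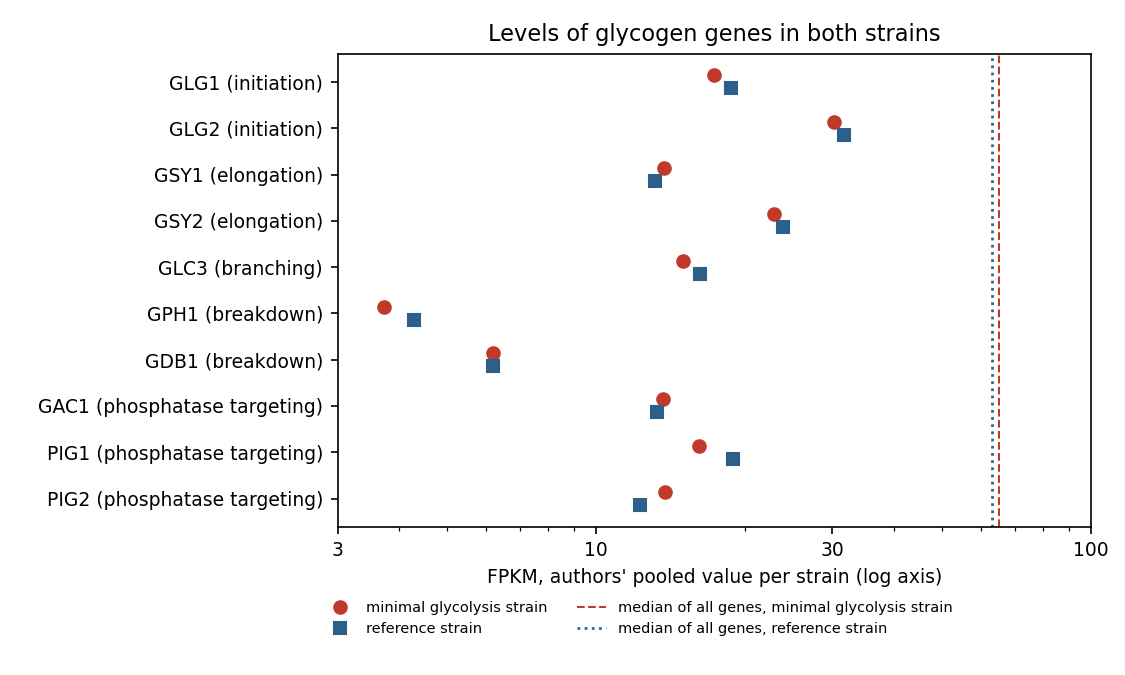
FPKM of each glycogen gene (log axis) in the minimal glycolysis strain (circles) and the reference strain (squares), 1 pooled value per strain, with the median of all genes in each strain as vertical lines. All 10 genes lie left of both lines, from GPH1 at 3.72 and 4.28 FPKM to GLG2 at 30.3 and 31.7 FPKM in the minimal glycolysis and reference strains.

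The error around each measured ratio was estimated from the authors' p. On a normal approximation, each log2 ratio and its p give back a standard error, which lay between 0.17 and 0.20 for the 10 genes. The resulting approximate 95% intervals stayed inside 1.5-fold either way for 9 of 10 genes, the exception being GPH1. When the authors' test statistic was read instead as log2 ratio over standard error, the standard errors were 0.20 to 0.26 and 7 of 10 intervals stayed inside. These intervals rest on the spread that Cuffdiff assigned to the libraries, and how the authors estimated it is not given in the sources used here. They do not give the smallest change that the authors' test would have called.

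Of the genes of chain initiation, GLG2 (YJL137C, chromosome 10, 137551 to 138693 on the CEN.PK113-7D assembly) had 30.3 FPKM in IMX372, against 31.7 FPKM in the reference, the highest level of the 10 genes in both strains. GLG1 (YKR058W, chromosome 11, 552743 to 554593), the other copy of the self-glucosylating initiator, had 17.3 FPKM in IMX372, against 18.7 FPKM in the reference. Both copies were slightly lower in IMX372, with log2 ratios of -0.07 (approximate 95% interval -0.42 to 0.29) for GLG2 and -0.11 (-0.47 to 0.24) for GLG1, and both intervals span 0. GLG2 made up 63.6% of the summed glycogenin level in IMX372 and 62.9% in the reference, so the balance of the copies moved by 0.73 percentage points.

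The synthase genes differed in level from each other more than either did between strains. GSY2 (YLR258W, chromosome 12, 645726 to 647843), which encodes the isoform known as the main one in stationary cells, had 22.9 FPKM in IMX372, against 23.9 FPKM in the reference. GSY1 (YFR015C, chromosome 6, 173091 to 175217) had 13.7 FPKM in IMX372, against 13.1 FPKM in the reference. Their log2 ratios were of opposite sign and small, -0.06 (approximate 95% interval -0.40 to 0.28) for GSY2 and 0.07 (-0.29 to 0.42) for GSY1. GSY2 took 62.5% of the summed synthase level in IMX372 and 64.5% in the reference. The difference between the log2 ratios of GSY2 and GSY1 was -0.13, with an approximate 95% interval of -0.61 to 0.36, so no shift from one isoform to the other could be told from the error. Together the synthase genes had 36.6 FPKM in IMX372 and 37.0 FPKM in the reference.

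GLC3 (YEL011W, chromosome 5, 131204 to 133318), the branching enzyme gene, had 14.997 FPKM in IMX372, against 16.206 FPKM in the reference, a log2 ratio of -0.11 (approximate 95% interval -0.46 to 0.23). It ranked 5 in level among the 10 genes in either strain. Chromosome 5 holds 9 called models, and the nearest of these to GLC3, PUP3, lies 213639 bases away.

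Genes of breakdown had the lowest levels. GPH1 (YPR160W, chromosome 16, 861243 to 863951), the phosphorylase gene, had 3.72 FPKM in IMX372, against 4.28 FPKM in the reference. This placed it at the 1.82 percentile of all genes in IMX372 and the 1.86 percentile in the reference. Its log2 ratio of -0.20 had the widest approximate 95% interval of the set by this estimate, from -0.60 to 0.20, or 0.660-fold to 1.14-fold. The ratio was -0.042 after a fit on level and coding length and -0.09 with 5 FPKM added to each strain. GDB1 (YPR184W, chromosome 16, 902046 to 906656), the debranching enzyme gene and the longest of the 10 at 4611 bases, had 6.19 FPKM in IMX372, against 6.20 FPKM in the reference. Its log2 ratio was -0.003 (approximate 95% interval -0.36 to 0.36), the nearest to 0 of the members, and became 0.145 after the same fit. The 5 enzyme genes of synthesis summed to 99.1 FPKM in IMX372, against 103.6 FPKM in the reference. The 2 enzyme genes of breakdown summed to 9.91 FPKM in IMX372, against 10.5 FPKM in the reference. The ratio of these sums was 10.01 in IMX372 and 9.89 in the reference. It sets 5 genes against 2 and is not a ratio per gene.

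**Figure D2:**
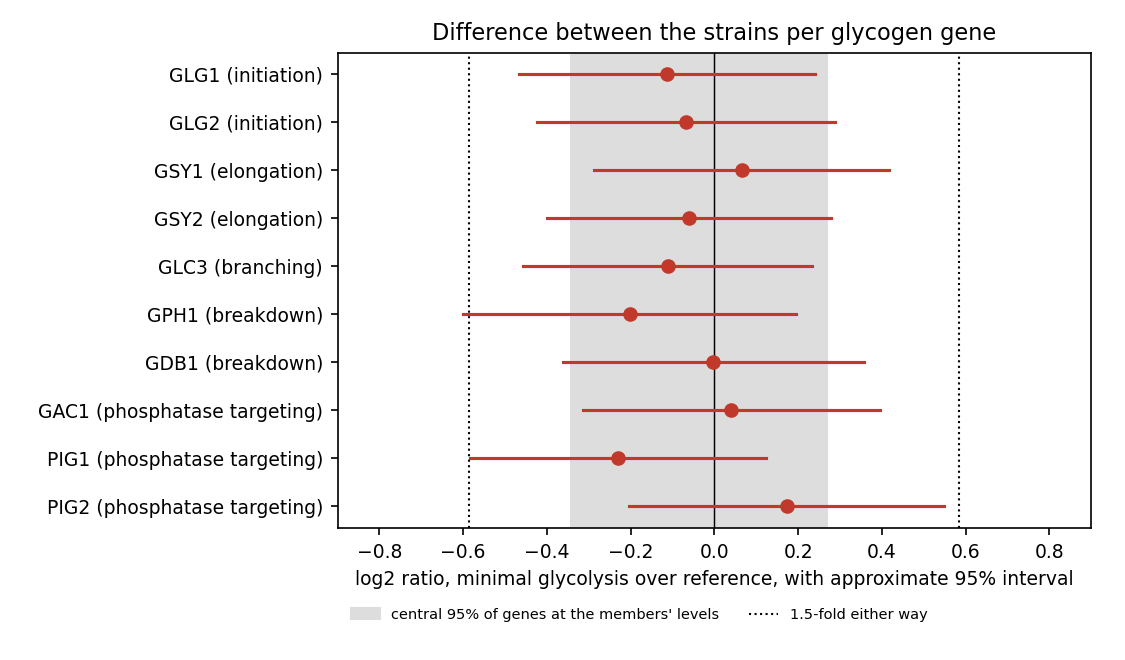
Log2 ratio (IMX372 over CEN.PK113-7D) of each glycogen gene (points) with its approximate 95% interval back-calculated from the authors' p (lines). The grey band is the central 95% of the 1335 genes at the members' levels, -0.34 to 0.27, and the dotted lines mark 1.5-fold. Every interval spans 0 and all 10 points lie inside the band.

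The largest differences of the 10 in either direction belonged to the genes of phosphatase targeting. PIG1 (YLR273C, chromosome 12, 674116 to 676062), which resembles GAC1, had 16.1 FPKM in IMX372, against 18.9 FPKM in the reference, a log2 ratio of -0.23 (approximate 95% interval -0.58 to 0.12). PIG2 (YIL045W, chromosome 9, 271160 to 272776) had 13.8 FPKM in IMX372, against 12.2 FPKM in the reference, a log2 ratio of 0.17 (-0.20 to 0.55). GAC1 (YOR178C, chromosome 15, 667763 to 670144), the targeting subunit best known for directing the phosphatase to glycogen synthase, had 13.6 FPKM in IMX372, against 13.3 FPKM in the reference, a log2 ratio of 0.04 (-0.31 to 0.39). None of the 3 passed the authors' test, and their differences in sign offset each other in the sum of 43.6 FPKM in IMX372 and 44.4 FPKM in the reference. PIG1 took 54.2% of the PIG1 and GAC1 sum in IMX372 and 58.8% in the reference, the largest shift of a pair, with a change of -4.60 percentage points. The difference between their log2 ratios was -0.27 with an approximate 95% interval of -0.77 to 0.23. With GIP2, a further gene of the same family, at 10.5 FPKM in IMX372 and 10.1 FPKM in the reference, the family summed to 54.1 FPKM in IMX372 and 54.5 FPKM in the reference.

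The order of levels was much the same in both strains. In IMX372 it ran from GLG2 over GSY2, GLG1, PIG1, GLC3, PIG2, GSY1, GAC1 and GDB1 to GPH1. In the reference it ran from GLG2 over GSY2, PIG1, GLG1, GLC3, GAC1, GSY1, PIG2 and GDB1 to GPH1. The changes of place were between PIG1 and GLG1, at 16.1 and 17.3 FPKM in IMX372 and at 18.9 and 18.7 FPKM in the reference, and between PIG2 and GAC1, which with GSY1 lay between 13.6 and 13.8 FPKM in IMX372 and between 12.2 and 13.3 FPKM in the reference. Whether neighbours in this order differ beyond the spread over libraries cannot be said, since the table gives no value per library. All 10 genes stood below the median gene, which had 65.1 FPKM in IMX372 and 63.1 FPKM in the reference. GLG2 reached the 26.5 percentile in IMX372 and the 27.7 percentile in the reference.

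The members were also set among genes of like level. Of the 1335 genes whose geometric mean FPKM over the strains lay between 3.99 and 31.0, the range of the members, 9 or 0.674% were called in the authors' deposited table. The smallest change called in that range was 1.59-fold, and the largest that was not called had an absolute log2 ratio of 1.31. The median absolute log2 ratio was 0.09 for the members and 0.09 for the range. Over all genes 12.8% had a larger absolute log2 ratio than PIG1, 17.3% than GPH1 and 23.6% than PIG2.

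**Figure D3:**
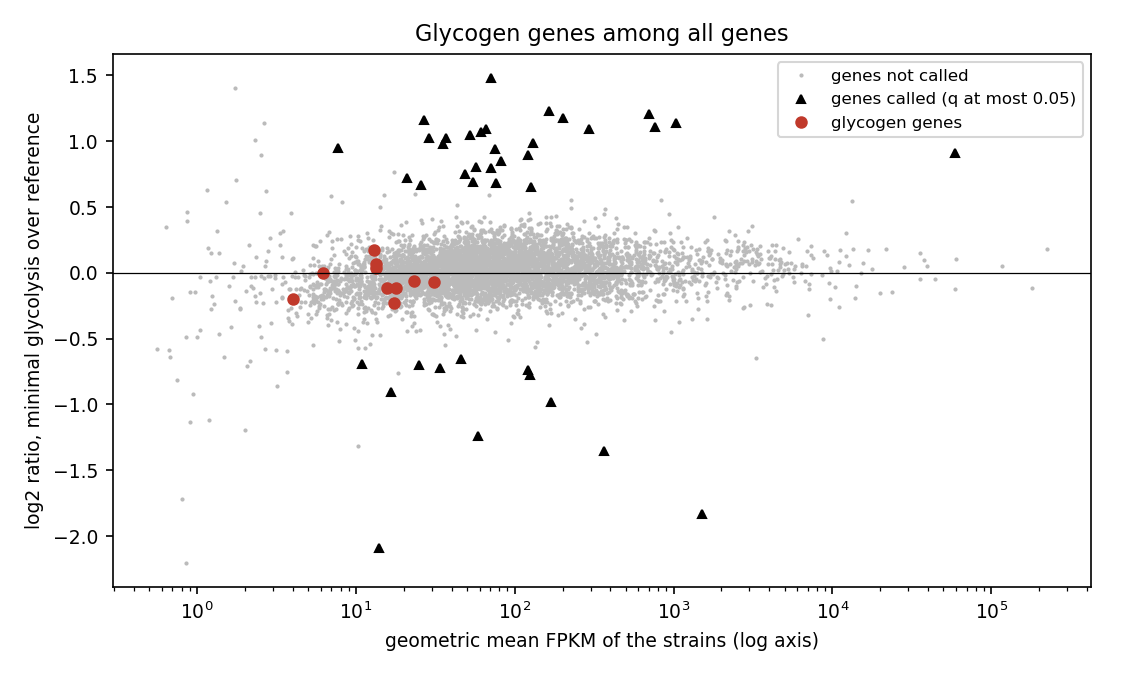
Log2 ratio (IMX372 over CEN.PK113-7D) against the geometric mean FPKM of the strains (log axis) for 5328 genes, with genes called at a q of at most 0.05 as triangles and the 10 glycogen genes as large points. The glycogen genes lie in the lower part of the level range, between -0.23 and 0.17, inside the cloud of genes that were not called.

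No called gene lay close to a glycogen gene. Each of the 10 genes has 1 model in the table, whose length equals that of the S288C R64 gene for 10 of 10, so that none is a fragment. They lie on 8 chromosomes. Of the 20 models directly beside them, 0 were called and 0 overlapped a member, the smallest gap being 171 bases between PIG2 and AGE2. Of the 100 models within 5 places on either side, 0 were called in the authors' deposited table. With 0.751% of all genes called, 0 of 20 and 0 of 100 are close to that background. The largest absolute log2 ratios among the 100 were -0.57 for IGD1, 2 places from GSY1, -0.50 for DPI8, 3 places from GLG2, -0.40 for a model named HAP1, 2 places from GSY2, and -0.33 for YEA4, 5 places from GLC3. IGD1, named here after its value was seen, encodes an inhibitor of the debranching enzyme Gdb1 and is no member of the set. It had 9.29 FPKM in IMX372, against 13.8 FPKM in the reference, with an unadjusted p of 0.0177 and q = 0.998 in the authors' deposited table, so it was not called. Among the 20 models directly beside a member, the largest log2 ratios were RPS21A beside GLG1 at 0.32, RPS21B beside GLG2 at 0.29 and UBC8 beside GLC3 at 0.27. RPS21A had 2485 FPKM in IMX372, against 1990 FPKM in the reference, and RPS21B had 2694 FPKM in IMX372, against 2206 FPKM in the reference. These genes encode a protein of the small ribosomal subunit, and neither was called, at unadjusted p of 0.0517 and 0.0861 in the authors' deposited table. GLG1 and GLG2 thus sit in matching surroundings, each with a copy of RPS21 on one side and a model named TIF1, an initiation factor gene, on the other. The table gives the name of TIF1 to both of those models and has no model named YJL138C, so the name beside GLG2 is uncertain.

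**Figure D4:**
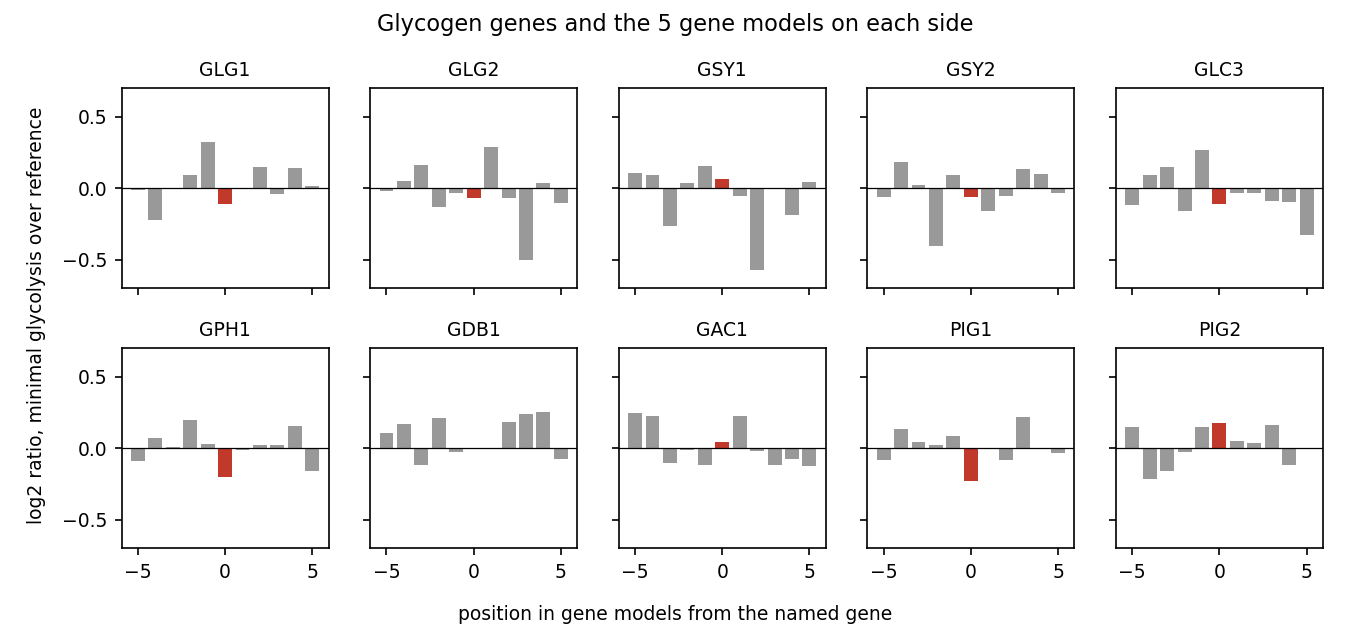
Log2 ratio (IMX372 over CEN.PK113-7D) of each glycogen gene (red, position 0) and the 5 gene models on each side in the order of the table's coordinates (grey). None of the 100 flanking models was called, beside 0.751% of all genes. RPS21A at 0.32 and RPS21B at 0.29 stand directly beside GLG1 and GLG2.

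Genes that feed the pathway and control it were examined as 7 further lists of 58 genes, of which 56 had a ratio and 2 were called. Over all genes 0.751% were called, so a count of 0 in any of these short lists is close to that background. In the glucose phosphate branch, which turns glucose 6-phosphate into UDP-glucose, 0 of 3 were called. PGM2, the major phosphoglucomutase gene, had 12.6 FPKM in IMX372, against 14.4 FPKM in the reference, a log2 ratio of -0.19. PGM1, the minor one, had 107.2 FPKM in IMX372 and 104.9 FPKM in the reference, at 0.03. UGP1, the UDP-glucose pyrophosphorylase gene, had 189.8 FPKM in IMX372 and 204.4 FPKM in the reference, at -0.11. In these cells growing on glucose the transcript of PGM1 was thus far above that of PGM2 in both strains.

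Counts for the phosphatase and the kinases of glycogen control were also 0, close to the share of 0.751% over all genes. Of the 12 listed genes of protein phosphatase 1 and its other subunits, 11 had a ratio and 0 were called, with a median log2 ratio of 0.04. YPI1, a regulator of the phosphatase, stood at 0.21, with 227.6 FPKM in IMX372 and 197.1 FPKM in the reference, and GLC8, a further regulator, at 0.14. GLC7, the catalytic subunit, had 233.0 FPKM in IMX372, against 236.9 FPKM in the reference. The list of kinases and cyclins holds 18 genes, of the Pho85, Snf1, protein kinase A and PAS kinase branches together with YAK1 and RIM15. Of the 18, 0 were called and the median log2 ratio was -0.03. PCL6, a cyclin partner of Pho85, stood at 0.20, with 55.6 FPKM in IMX372 and 48.4 FPKM in the reference. PSK1, a PAS kinase gene, stood at -0.20, with 13.5 FPKM in IMX372 and 15.5 FPKM in the reference. Transcription factors of reserve carbohydrate genes had 0 of 6 called and a median of -0.04, with the repressor gene NRG1 at 0.09 and SKO1 at -0.08.

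Trehalose, the other reserve carbohydrate of yeast, is made from the same UDP-glucose. Its 7 genes had 0 called and 7 of 7 log2 ratios below 0, where 2505 of all 5328 genes were below 0, with a median of -0.03 beside -0.06 for the glycogen genes. After the fit on level and coding length 4 of the 7 were below 0 and 3 above, with a median of -0.001. TPS2, the trehalose-6-phosphate phosphatase gene, stood at -0.20, with 31.3 FPKM in IMX372 and 36.1 FPKM in the reference, and TSL1, a regulatory subunit of trehalose synthase, at -0.10. SGA1, a glucoamylase gene used in sporulation, had 1.76 FPKM in IMX372 and 1.67 FPKM in the reference, below all 10 glycogen genes, and was not called.

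General stress markers were set beside the glycogen genes because both groups respond to stress. Of the 10 markers with a ratio, 2 were called, both higher in IMX372, beside 0.751% of all genes. The list was chosen with earlier results of these data known, so these calls cannot be read as an excess over that share. HSP30, a plasma membrane stress protein gene, had 41.4 FPKM in IMX372, against 20.4 FPKM in the reference, and SSA4, an inducible Hsp70 gene, had 49.8 FPKM in IMX372, against 25.2 FPKM in the reference, each with q = 0.00735 in the authors' deposited table. HSP30 and SSA4 lie on chromosomes 3 and 5. There 4 of the 4 nearest tested models of HSP30 and 3 of the 4 nearest of SSA4 were also called. The glycogen genes have no called model within 5 places, which is close to the share of 0.751% over all genes. The other 8 markers were not called and had log2 ratios from -0.32 for HSP26 to 0.28 for GRE1, genes named here after their values were seen. The glycogen genes had 0 called, and the difference between the lists was not tested.

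**Figure D5:**
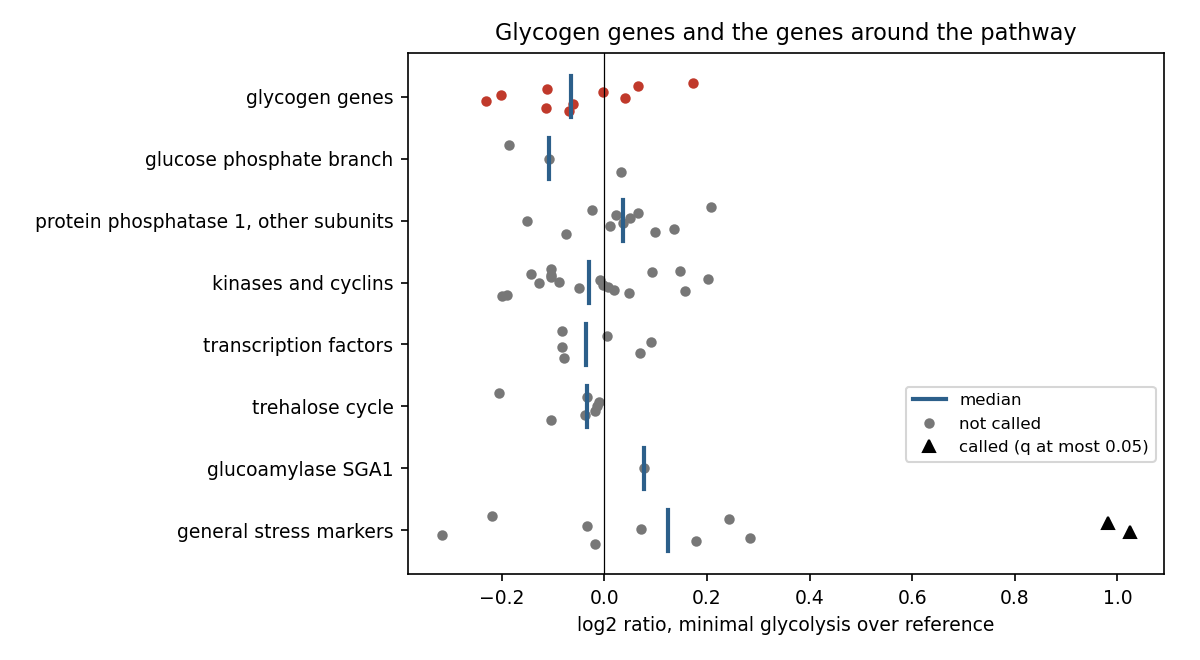
Log2 ratio (IMX372 over CEN.PK113-7D) of the glycogen genes (red) and for the genes of each list around the pathway (grey), with called genes as triangles and the median of each list as a bar. HSP30 and SSA4 are the called genes, and the medians lie between -0.11 for the glucose phosphate branch and 0.13 for the general stress markers.

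The functional category that the authors' deposited table names glycogen metabolism holds 8 genes, 6 of them members. The other two are GLC7 at a log2 ratio of -0.02 and PPG1, a protein phosphatase gene, at 0.20, with 69.5 FPKM in IMX372 and 60.4 FPKM in the reference. None of the 8 was called. GLC3, GDB1, PIG1 and PIG2 stand under other categories in that table.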

How the data were processed

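The study deposited 1 table comparing 2 libraries of each strain. The submitters' processing notes name Cuffdiff and Cufflinks, SAMtools 0.1.7-r510, BWA 0.5.9-r16 and CASAVA 1.8.2, without saying which did what, and the labels name CEN.PK113-7D as the genome. Per the file headers, the authors' table holds an FPKM per gene model and strain, pooled over libraries, with the authors' log2 ratio, signed fold, test statistic (a score), p-value and q-value. The labels describe a library kit that does not mark strand. The labels state 4 independent batch cultivations per strain but not which of them gave the libraries, so whether the spread behind the p-values is between cultivations is not given in the sources used here. Read numbers per gene are unknown, so counting error cannot be stated. The number of unused columns of per-sample values was 0.

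Log2 ratios were taken directly from the FPKM, with nothing added, and differed from the authors' by at most 1.31e-05. The longest tested model of each systematic name was kept. Symbols came from the S288C R64 annotation, matched by systematic name for 5434 of 5472 models, and no R64 coordinate is printed. Standard errors were back-calculated from the authors' p-value on a normal approximation, which was tested on simulated data together with the Benjamini-Hochberg adjustment and the trend fit (Python 3.11.15, numpy 2.4.6, pandas 2.3.3, scipy 1.17.1, matplotlib 3.10.9). The members and lists were chosen with earlier results of these data known. Named were all members, their direct neighbours where a result turned on them, and the deleted genes. Of each list its called genes were named. Failing these, up to 2 genes with the largest absolute log2 ratio and an FPKM of at least 10 were named (every gene in lists of 3 or fewer). Outside this rule stand GLC7, GIP2, PPG1, PUP3, HSP26 and GRE1. IGD1, DPI8, HAP1 and YEA4 were named for their absolute log2 ratios within 5 places of a member, after their values were seen. Alternatives were a q of 0.01, an unadjusted p under 0.05, a recomputed q, a change of 1.5-fold, an FPKM of at least 10, all models of a name, centring, 1 or 5 FPKM added, a fit of degree 3 on level and coding length, the 200 genes nearest in coding length, and the mean.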

Additional observations from a re-analysis of the deposited data

How the results depend on the processing

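The count of called glycogen genes was 0 at an unadjusted p under 0.05 and at a change of 1.5-fold whatever q. It was also 0 under a q of 0.01, a recomputed q, an FPKM of at least 10 and all models of a name. For the members these last 4 settings could not have raised the count. The smallest unadjusted p from the authors' test was 0.202, and each member has 1 model. The counts for the 7 further lists did not move by more than 1.5 times under any of these settings. The members' median log2 ratio of -0.06 ranged from -0.08 (centred on all genes) to -0.04 (fit on level and coding length), below 0 in each. Longer genes had lower log2 ratios across the 5328 genes (Spearman's rho = -0.337, genes not being independent replicates), and the members are long, with a median of 2117 bases beside 1251 bases. GDB1, the longest, changed sign from -0.003 to 0.145 with the fit and to 0.094 against the 200 genes nearest in length, and the other 9 members kept their sign in every alternative run. GPH1 moved from -0.202 to -0.042 with the fit, to -0.161 with 1 FPKM added and to -0.0897 with 5 FPKM added. The standard error from the test statistic, an alternative chosen after seeing the data, left 7 rather than 9 intervals inside 1.5-fold. No paired analysis was possible because the table holds 1 pooled value per strain, and for the same reason no library could be left out.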
